A study of Mus musculus with 12 samples.

Results

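The renin-angiotensin system was followed through 7 genes, chosen by name with earlier results of these data known: Agt, Ren1, Ace, Agtr1a, Enpep, Mme and Anpep. All 7 had an entry among the 13124 genes of the deposited count table. The kidneys came from male C57BL/6 mice, 3 per group, and were flushed with saline and collected 24 h after surgery. In 3 groups a kidney had undergone unilateral warm ischaemia-reperfusion injury (IRI), in which its blood flow is stopped and then restored, 24 h after the mouse received an antibody. That antibody was directed against the receptor of granulocyte colony-stimulating factor (anti-G-CSFR, VR81; kidneys 7 to 9) or against complement protein C5 (anti-C5, BB5.1; kidneys 10 to 12), or was an isotype control (kidneys 4 to 6). Sham-operated mice (kidneys 1 to 3) received no antibody, so the comparison of isotype with sham kidneys joins the injury with the injected antibody. It is not stated in the labels which side was collected after IRI.

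The renin-angiotensin system is a chain of secreted and membrane-bound proteins that sets blood pressure and salt balance. Renin, released by juxtaglomerular cells of the afferent arteriole, cuts angiotensinogen to angiotensin I, and angiotensin-converting enzyme (ACE) trims this to angiotensin II, which acts through the type 1 receptor. Membrane peptidases abundant on the proximal tubule brush border process these peptides further. Aminopeptidase A turns angiotensin II into angiotensin III, aminopeptidase N turns angiotensin III into angiotensin IV, and neprilysin cuts angiotensin I to angiotensin-(1-7). The kidney makes its own angiotensinogen in the proximal tubule besides taking up that made by the liver.

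The promoters of the genes are described here, and a link between their letters and the levels in the groups was not tested. RefSeq (GRCm38.p6) gave 9 promoters for 6 of the 7 genes, and none was listed for Agtr1a. The 100 bases before the annotated start are printed 5′ to 3′ on the gene's own strand for 5 of these promoters. Capitals mark the TATA box letters TATAAA, or TTTATA where the same letters lie on the other strand.
Ren1, chr1:133350574-133350673, plus strand: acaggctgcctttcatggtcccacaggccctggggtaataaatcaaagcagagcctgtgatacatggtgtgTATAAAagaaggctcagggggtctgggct
Agt, chr8:124569707-124569806, minus strand: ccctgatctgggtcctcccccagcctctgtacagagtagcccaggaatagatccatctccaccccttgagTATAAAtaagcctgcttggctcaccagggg
Ace, chr11:105967848-105967947, plus strand, the first of 2 starts: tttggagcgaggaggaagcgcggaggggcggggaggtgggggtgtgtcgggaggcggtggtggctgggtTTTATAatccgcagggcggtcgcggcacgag
Enpep, chr3:129332750-129332849, minus strand: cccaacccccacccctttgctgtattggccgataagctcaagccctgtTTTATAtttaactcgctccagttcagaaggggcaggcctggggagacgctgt
Anpep, chr7:79848211-79848310, minus strand: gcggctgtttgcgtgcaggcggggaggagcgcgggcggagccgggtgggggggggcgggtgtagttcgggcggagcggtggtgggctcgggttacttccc

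TATAAA began 29 bases before the start in Ren1 and 30 in Agt, and lay on the other strand 31 bases before the start in Ace and 52 in Enpep. The 250 bases upstream of a start held TATAAA on either strand in 12.4% of 32851 mouse promoters. The GC box letters GGGCGG, found in 32.7% of promoters, occurred 3 times before Anpep, 4 times before the first Ace start and 5 times over the 3 Mme promoters. GTTAAT, the core of the element bound by the proximal tubule factor HNF1, was found in 6.43% of promoters and in none of the 9 windows of these genes. Overlaps between motifs were not removed, and a match of letters is not a measured binding site. In the GENCODE annotation Ren1, Mme and Anpep start further upstream. The Ren1 window lies within the first GENCODE exon and the Anpep window within the gene but in no exon. The windows of the 3 Mme promoters and of the second Ace start lie within their genes.

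Between 13200930 and 16324215 reads were counted per kidney. Levels are counts scaled to a common library size (CPM, edgeR's TMM factors). Log2 changes and Benjamini-Hochberg (BH) adjusted p-values come from edgeR's quasi-likelihood test over all 13124 genes and 12 kidneys, with 0.05 as the threshold, and "rose" and "fell" are used of changes that passed it. Of markers that define the tissue, the 10 proximal tubule markers summed to 12303 to 13213 CPM in sham kidneys and the 6 podocyte markers to 480.5 to 508.2 CPM, while none of 5 B cell markers had an entry. Between kidneys of the same group, the chi-square statistic of their counts divided by its degrees of freedom was 5.48 to 65.3, the lowest for isotype kidneys 5 and 6. Kidney 4 stood apart from both of these (46.3 and 48.6), kidney 11 from the other anti-C5 kidneys (53.7 and 65.3) and kidney 9 from kidney 7 (47.5). Ren1 and Anpep are also given without kidney 4, and the rises under the antibodies without kidneys 9 and 11.

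**Figure D1:**
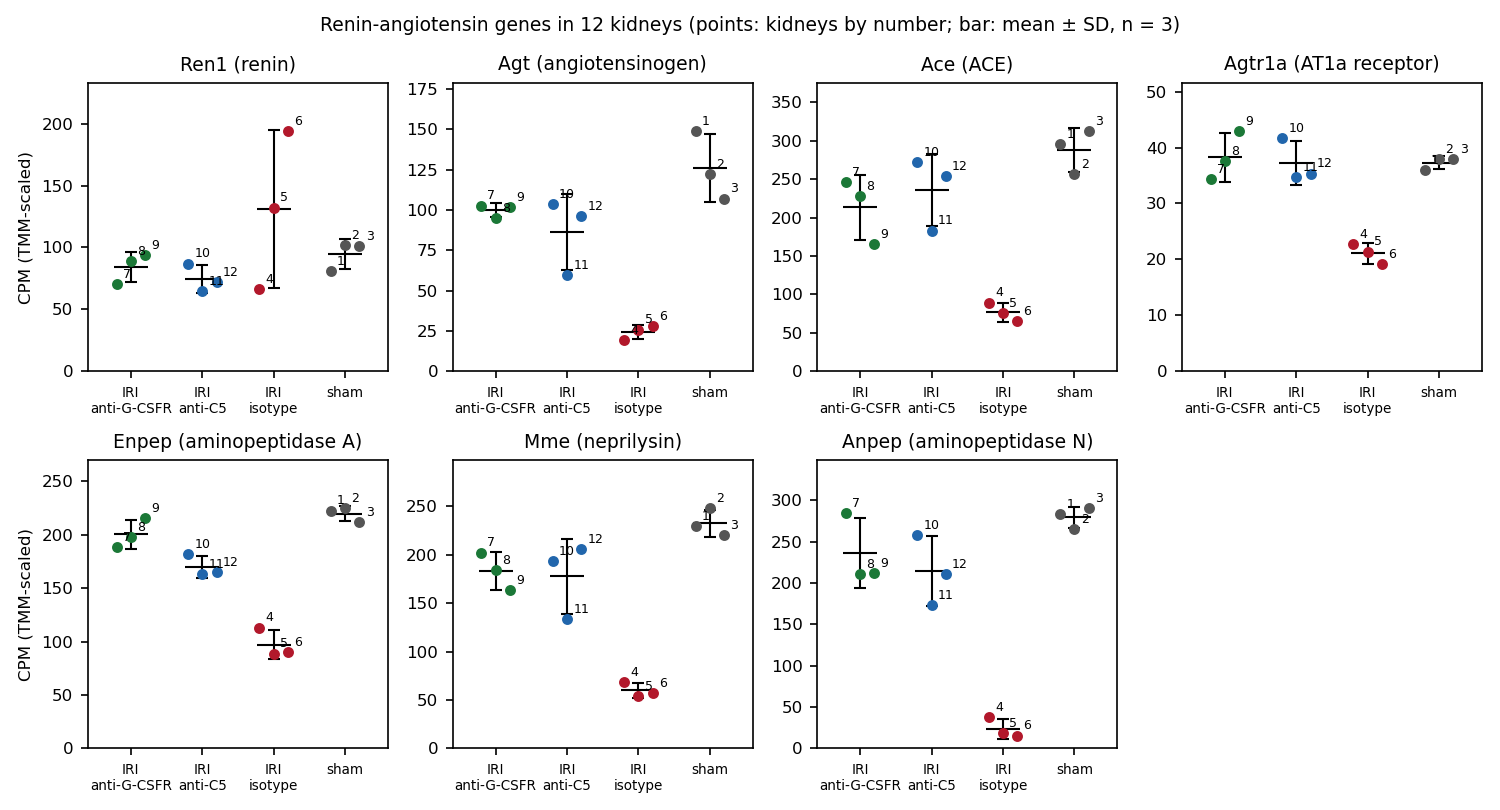
Level of each renin-angiotensin gene in every kidney, in CPM on an axis of its own per gene, for the anti-G-CSFR, anti-C5, isotype and sham groups (points, 1 kidney each; horizontal bars, mean of 3 kidneys; vertical bars, SD). The isotype kidneys lie below all other kidneys for 6 genes, and for Ren1 they spread from 66.2 to 194 CPM around the other groups.

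Agt, Ace, Agtr1a, Enpep, Mme and Anpep fell in isotype-treated IRI kidneys against sham kidneys, and Ren1 did not pass the test. The falls left between 8.47% (Anpep) and 56.6% (Agtr1a) of the sham level. Against isotype, all 6 rose by 1.81- to 9.95-fold with anti-G-CSFR and by 1.75- to 9.05-fold with anti-C5. Of all genes tested, 30.7% fell in isotype kidneys relative to sham, 31.5% rose with anti-G-CSFR and 30.5% rose with anti-C5, against 6 of 7 renin-angiotensin genes each time. The 7 genes were chosen with earlier results of these data known, so the shares are given side by side and are not a test. The kidneys of the compared groups did not overlap for the same 6 genes, as they did not for 33.7% (lower, isotype and sham), 33% (higher, anti-G-CSFR and isotype) and 31.7% (higher, anti-C5 and isotype) of all genes. The median log2 change of the 7 genes was −1.91 for isotype relative to sham, 1.48 for anti-G-CSFR relative to isotype and 1.57 for anti-C5 relative to isotype, with all-gene medians of 0.03, −0.02 and −0.01. All 3 comparisons share the isotype kidneys, so they are given side by side and their likeness is not read as a result. In whole-kidney RNA, fewer cells of a type and less RNA per cell cannot be told apart.

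Agt (Entrez 11606; GRCm38 chromosome 8, 124556534 to 124569706, minus strand, protein-coding) encodes angiotensinogen, the only precursor of the angiotensins. It stood at 103, 95.1 and 102 CPM in anti-G-CSFR kidneys, 104, 59.5 and 96.3 in anti-C5 kidneys, 19.4, 25.7 and 27.8 in isotype kidneys and 149, 122 and 107 in sham kidneys. The isotype kidneys lay below every other kidney, and kidney 11 was the lowest of the other groups. Isotype kidneys averaged 24.3 ± 4.33 CPM and sham kidneys 126 ± 21.2 (SD, n = 3 each), a log2 change of −2.38 ± 0.208 (SE; edgeR BH-adjusted p = 5.93e-06), or 5.19-fold lower. Anti-G-CSFR kidneys averaged 99.9 ± 4.20 CPM and rose by 2.04 ± 0.206 against isotype (edgeR BH-adjusted p = 1.56e-05). Anti-C5 kidneys averaged 86.5 ± 23.6 CPM and rose by 1.83 ± 0.205 (edgeR BH-adjusted p = 3.44e-05), and by 2.06 without kidneys 9 and 11.

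Ren1 (Entrez 19701; chromosome 1, 133350510 to 133360325, plus strand, protein-coding) encodes renin, the enzyme that limits the rate of the chain, and is the only renin gene of C57BL/6 mice. It stood at 70.4, 88.9 and 93.7 CPM in anti-G-CSFR kidneys, 87.0, 64.7 and 72.2 in anti-C5 kidneys, 66.2, 132 and 194 in isotype kidneys and 80.8, 102 and 101 in sham kidneys. Isotype kidneys 5 and 6 were above every other kidney of the study and isotype kidney 4 was below all 3 sham kidneys, so the groups overlapped. The isotype mean was 131 ± 64.1 CPM and the sham mean 94.6 ± 11.9 (SD, n = 3 each), a log2 change of 0.47 ± 0.290 with a 95% interval of −0.16 to 1.10 that did not pass the test (edgeR BH-adjusted p = 0.177). Leaving out isotype kidney 4 gave 0.79 (edgeR BH-adjusted p = 0.00339) and leaving out isotype kidney 6 gave 0.07 (0.831), the ends of the range over the alternatives.

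Against isotype, Ren1 was at −0.63 ± 0.291 under anti-G-CSFR (84.4 ± 12.3 CPM; 95% interval −1.27 to 0.00098; edgeR BH-adjusted p = 0.0748), which did not pass. Under anti-C5 it fell, at −0.81 ± 0.292 (74.6 ± 11.4 CPM; edgeR BH-adjusted p = 0.0307), but the groups overlapped, since isotype kidney 4 at 66.2 CPM lay between kidneys 11 and 12. The anti-C5 call was lost in 7 of 20 alternatives, among them limma-voom (−0.70, adjusted p = 0.0552), the fit without kidneys 9 and 11 (−0.70, edgeR BH-adjusted p = 0.096) and the fit without isotype kidney 6 (−0.41, edgeR BH-adjusted p = 0.19). The anti-G-CSFR difference passed without isotype kidney 4 (−0.95, edgeR BH-adjusted p = 0.00103) and with library totals in place of TMM factors (−0.84, edgeR BH-adjusted p = 0.0264). Among the 7 genes, only the Ren1 calls depended on a setting in the comparisons with isotype kidneys.

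Ace (Entrez 11421; chromosome 11, 105967945 to 105989964, plus strand, protein-coding) encodes ACE, which makes angiotensin II and also inactivates bradykinin. It stood at 246, 228 and 166 CPM in anti-G-CSFR kidneys, 272, 183 and 254 in anti-C5 kidneys, 89.0, 75.4 and 65.1 in isotype kidneys and 295, 256 and 313 in sham kidneys. The isotype kidneys were below all others, and kidneys 9 and 11 were the lowest of the antibody groups. The isotype mean was 76.5 ± 12.0 CPM and the sham mean 288 ± 29.0 (SD, n = 3 each), a log2 change of −1.91 ± 0.190 (edgeR BH-adjusted p = 1.09e-05). Ace rose against isotype by 1.48 ± 0.188 under anti-G-CSFR (213 ± 42.2 CPM; edgeR BH-adjusted p = 5.6e-05) and by 1.63 ± 0.189 under anti-C5 (236 ± 47.0 CPM; edgeR BH-adjusted p = 4.15e-05). Without kidneys 9 and 11 the rise was 1.66 with anti-G-CSFR and 1.80 with anti-C5.

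Agtr1a (Entrez 11607; chromosome 13, 30336441 to 30382867, plus strand, protein-coding) encodes the main type 1 angiotensin II receptor of mice and had the smallest fall of the 6 genes. It stood at 34.4, 37.5 and 43.0 CPM in anti-G-CSFR kidneys, 41.7, 34.7 and 35.3 in anti-C5 kidneys, 22.8, 21.4 and 19.1 in isotype kidneys and 35.9, 38.0 and 37.9 in sham kidneys. No isotype kidney overlapped with any other group, and the antibody groups lay around the sham values. The isotype mean was 21.1 ± 1.85 CPM and the sham mean 37.3 ± 1.17 (SD, n = 3 each), a log2 change of −0.82 ± 0.112 (edgeR BH-adjusted p = 7.88e-05), or 1.77-fold lower. It rose by 0.86 ± 0.112 under anti-G-CSFR (38.3 ± 4.36 CPM; edgeR BH-adjusted p = 6.5e-05) and by 0.82 ± 0.112 under anti-C5 (37.2 ± 3.86 CPM; edgeR BH-adjusted p = 0.000112). Agtr1b and Agtr2, the genes of the other angiotensin II receptors, had no entry in the table.

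Enpep (Entrez 13809; chromosome 3, 129269175 to 129332720, minus strand, protein-coding) encodes aminopeptidase A, the angiotensin II-cleaving enzyme. It stood at 188, 198 and 215 CPM in anti-G-CSFR kidneys, 182, 163 and 165 in anti-C5 kidneys, 113, 88.6 and 90.0 in isotype kidneys and 223, 225 and 212 in sham kidneys. The anti-C5 kidneys were all above the isotype kidneys and all below the anti-G-CSFR and sham kidneys. Enpep fell by 1.18 ± 0.111 in isotype (97.2 ± 13.7 CPM) against sham (219.7 ± 7.07 CPM; edgeR BH-adjusted p = 8.14e-06), to 44.3% of the sham level. Against isotype it rose 2.06-fold under anti-G-CSFR (200.6 ± 13.6 CPM; edgeR BH-adjusted p = 1.88e-05) and 1.75-fold under anti-C5 (170.0 ± 10.2 CPM; edgeR BH-adjusted p = 0.000112).

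Mme (Entrez 17380; chromosome 3, 63241537 to 63386030, plus strand, protein-coding) encodes neprilysin, which also breaks down natriuretic peptides. It stood at 202, 184 and 164 CPM in anti-G-CSFR kidneys, 194, 134 and 206 in anti-C5 kidneys, 68.7, 54.2 and 57.3 in isotype kidneys and 229, 248 and 220.0 in sham kidneys. The isotype kidneys were the lowest and the sham kidneys the highest of the study, with no overlap on either side. Mme fell by 1.95 ± 0.163 in isotype (60.0 ± 7.63 CPM) against sham (233 ± 14.3 CPM; edgeR BH-adjusted p = 4.88e-06). It rose against isotype by 1.61 ± 0.161 under anti-G-CSFR (183 ± 19.2 CPM; edgeR BH-adjusted p = 1.5e-05) and by 1.57 ± 0.161 under anti-C5 (178 ± 38.8 CPM; edgeR BH-adjusted p = 2.26e-05).

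Anpep (Entrez 16790; chromosome 7, 79821803 to 79861059, minus strand, protein-coding) encodes aminopeptidase N, or CD13, an abundant brush border enzyme that myeloid cells also carry. It moved the most of the 7 genes in all 3 comparisons with isotype kidneys. It stood at 285, 211 and 212 CPM in anti-G-CSFR kidneys, 258, 173 and 211 in anti-C5 kidneys, 37.3, 18.3 and 15.2 in isotype kidneys and 283, 265 and 290.4 in sham kidneys. Isotype kidney 4 held more than kidneys 5 and 6, and the isotype group was still far below every other kidney. The isotype mean was 23.6 ± 12.0 CPM and the sham mean 279.6 ± 12.9 (SD, n = 3 each), a log2 change of −3.56 ± 0.302 (edgeR BH-adjusted p = 5.18e-06), or 11.8-fold lower. It rose 9.95-fold under anti-G-CSFR (235.7 ± 42.3 CPM; edgeR BH-adjusted p = 8.39e-06) and 9.05-fold under anti-C5 (214 ± 42.6 CPM; edgeR BH-adjusted p = 1.39e-05).

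**Figure D2:**
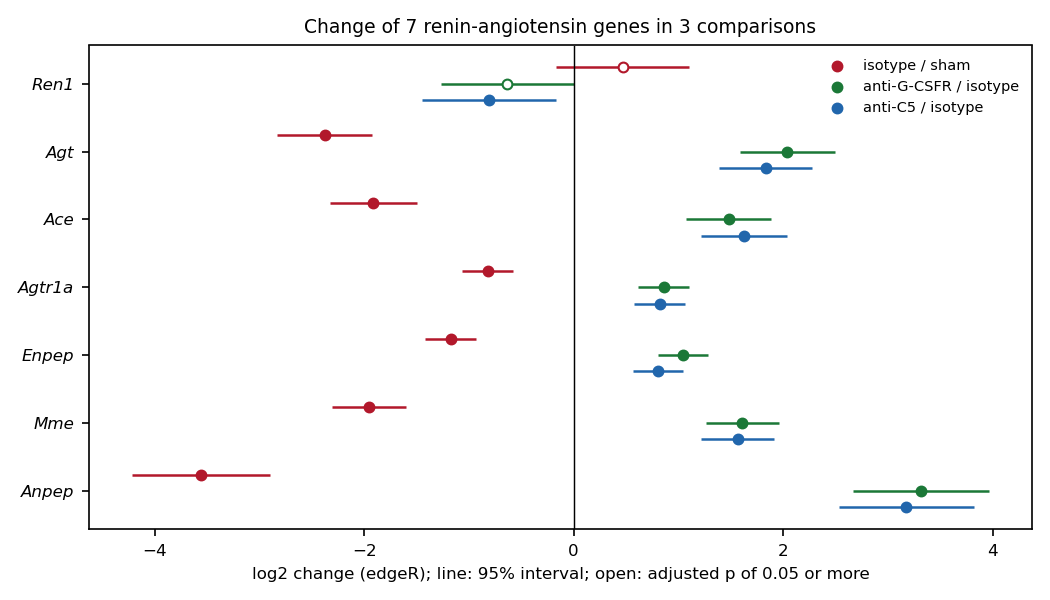
Log2 change of the 7 genes with 95% intervals from edgeR for anti-G-CSFR and anti-C5, each against isotype, and for isotype against sham; open points did not pass the test and the line at 0 marks no change. For 6 genes the intervals of isotype against sham lie below 0 and those of both antibodies against isotype above 0, and for Ren1 the order of the points is turned round.

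The proximal tubule markers, whose cells make Agt and the brush border peptidases, moved with the 6 genes. All 10 fell in isotype against sham (median log2 change −2.97), where 30.7% of all genes fell. All 10 rose against isotype under anti-G-CSFR (2.61, with 31.5% of all genes rising) and under anti-C5 (2.56, with 30.5% rising). Their summed level was 10498 to 11762 CPM in anti-G-CSFR kidneys, 8112 to 12126 in anti-C5 kidneys, 1744 to 2517 in isotype kidneys and 12303 to 13213 in sham kidneys, and none of the 10 markers was at 0 in any group mean. The neutrophil markers (7 of 8 measured; Ly6g had no entry) summed to 2.16 to 2.91 CPM in anti-G-CSFR kidneys, 8.18 to 119 in anti-C5 kidneys with kidney 11 the highest, 41.6 to 115 in isotype kidneys and 8.01 to 10.6 in sham kidneys. Csf3r, Cxcr2, Retnlg, Clec4d and Mmp9 reached the 2.01 CPM (by library totals) that every gene of the table has in at least 3 kidneys only in isotype kidneys and, except Retnlg, in kidney 11, so counts of called neutrophil markers are not given. The part of either cell type in these results was not tested.

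Kidney 11, with the most neutrophil marker RNA, was the lowest anti-C5 kidney for all 7 genes, and kidney 10 was the highest for 6 of them. Kidney 4 was the highest isotype kidney for Ace, Agtr1a, Enpep, Mme and Anpep and the lowest for Ren1 and Agt. In this group kidney 5 had the least neutrophil marker RNA (41.6 CPM, against 94.6 in kidney 4 and 115 in kidney 6). A link between neutrophil markers and the levels of the 7 genes was not tested. Kidney 9 was the lowest anti-G-CSFR kidney for Ace and Mme and the highest for Ren1, Agtr1a and Enpep. Leaving out kidneys 9 and 11 together moved the 6 rises under anti-G-CSFR to 0.79 (Agtr1a) to 3.41 (Anpep) and those under anti-C5 to 0.85 (Enpep) to 3.32 (Anpep). All 6 genes kept their direction and call in each of the 20 alternatives in all 3 comparisons, with a highest adjusted p of 0.00352.

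**Figure D3:**
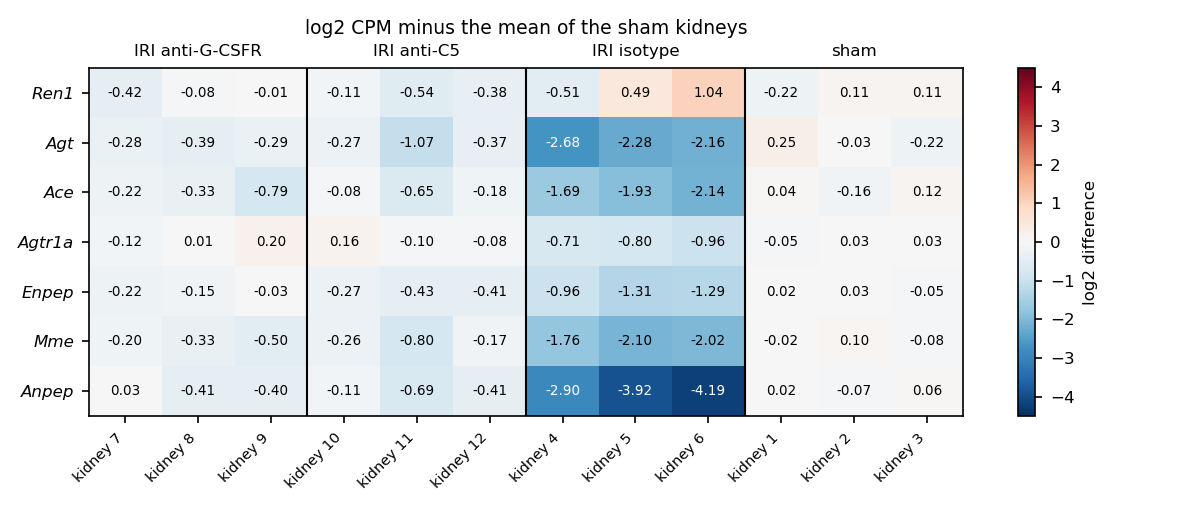
Log2 level of each renin-angiotensin gene (rows) in each kidney (columns, by group) minus the mean of the sham kidneys; blue is lower and red is higher. The isotype columns are blue for 6 genes, Ren1 is red in isotype kidneys 5 and 6 and blue in kidney 4, and kidney 11 is the lowest anti-C5 column in every row.

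No renin-angiotensin gene passed the test in either antibody group against sham or between the antibodies. In each of these comparisons 0% of all 13124 genes passed in edgeR and in limma-voom, and both tools and DESeq2 called 0 of the 7. Over all genes with an adjusted p, DESeq2 called 9 of 2178 in anti-G-CSFR against sham, 28 of 4466 in anti-C5 against sham and 2 of 13108 between the antibodies. Fitted on only the 6 libraries compared, edgeR called 41 genes higher and 2 lower in anti-G-CSFR against sham and 0 in the other pairs, and 0 of the 7. At an unadjusted p below 0.05, edgeR gave 2 of 7 in anti-G-CSFR against sham (Ace and Mme), 3 in anti-C5 against sham (Agt, Enpep and Mme) and 1 between the antibodies (Enpep), where 5.93%, 11.3% and 1.58% of all genes were below it. DESeq2 gave 2, 3 and 1 in that order, with 6.22%, 11.8% and 1.58% of all genes, and limma-voom 1, 3 and 1, with 5.87%, 10.4% and 1.08%. Without kidneys 9 and 11, edgeR's unadjusted p was 0.0868 for Ace and 0.0595 for Mme in anti-G-CSFR against sham, and 0.0697 for Agt, 0.0188 for Enpep and 0.105 for Mme in anti-C5 against sham. DESeq2 assigned no adjusted p to Ren1, Agt and Agtr1a in anti-G-CSFR against sham or to Agtr1a in anti-C5 against sham.

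The fitted levels in anti-G-CSFR kidneys were between 74.1% (Ace) and 103% (Agtr1a) of sham, with Anpep at 84.3%, Agt at 79.2% and Mme at 78.9%. In anti-C5 kidneys they were between 68.6% (Agt) and 99.9% (Agtr1a) of sham, with Enpep at 77.4%, Anpep at 76.6% and Mme at 76.5%. Without kidneys 9 and 11 they were between 79.3% (Agt) and 97.4% (Agtr1a) with anti-G-CSFR, with Ace at 83.2%, and between 79.3% (Enpep) and 104% (Agtr1a) with anti-C5, with Agt at 79.6%. These differences did not pass the test, which does not show that the levels were the same. For Agtr1a the 95% interval of the log2 difference from sham was −0.20 to 0.28 under anti-G-CSFR and −0.24 to 0.24 under anti-C5. For Ace it was −0.83 to −0.03 under anti-G-CSFR and −0.69 to 0.11 under anti-C5. For Anpep it was −0.84 to 0.34 under anti-G-CSFR and −0.97 to 0.21 under anti-C5. All 3 kidneys lay below all 3 sham kidneys for Agt, Ace and Mme under anti-G-CSFR and for Agt, Enpep, Mme and Anpep under anti-C5, and 8.9% and 8.59% of all genes did so.

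Between the antibodies, the log2 difference of anti-G-CSFR from anti-C5 kidneys was between −0.15 (Ace) and 0.24 (Enpep). Of the 7 genes, only Enpep had groups that did not overlap, at 188 to 215 CPM under anti-G-CSFR and 163 to 182 CPM under anti-C5, with a 95% interval of 0.0015 to 0.48. Of all genes, 1.9% lay wholly higher in this way. The intervals for Agt (−0.22 to 0.64), Mme (−0.30 to 0.39) and Anpep (−0.45 to 0.73) each covered 0.

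Divided by exon length, the order of the mean levels in isotype kidneys differed from that in each other group. In CPM per kilobase (kb) of GENCODE vM21 exons, sham kidneys averaged 67.6 for Anpep, 66.7 for Agt, 57.1 for Ren1, 54.5 for Ace, 46.7 for Enpep, 20.1 for Mme and 13.4 for Agtr1a. The ranges of the first 4 overlapped with their neighbours in this order, and those from Ace down to Agtr1a did not. In isotype kidneys Ren1 led with 79.0 CPM per kb, followed by Enpep with 20.7, Ace with 14.5, Agt with 12.9, Agtr1a with 7.57, Anpep with 5.71 and Mme with 5.20. There the ranges of Ren1 and Enpep did not overlap, and the ranges of Ace and Agt, of Agtr1a and Anpep, and of Anpep and Mme did. Anti-G-CSFR kidneys ran from 57.0 CPM per kb for Anpep to 13.7 for Agtr1a, and anti-C5 kidneys from 51.8 for Anpep to 13.4 for Agtr1a. Unlike in sham and anti-C5 kidneys, Enpep (42.6) stood above Ace (40.3) in anti-G-CSFR kidneys, with ranges that overlapped. Exons of all annotated transcripts were joined, which lowers the values of genes with long or rare exons such as Mme, at 11542 bp.

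Which genes followed each member most closely was measured by the root-mean-square (RMS) difference in log2 CPM over the 12 kidneys, with each gene centred on its own mean, among genes averaging at least 5 CPM. This is a description of likeness with no test. The closest to Agtr1a was Agtrap (RMS 0.079), which encodes the protein that binds the type 1 receptor, before Pafah2 (0.0818) and Gna12 (0.0829). Ace was followed by Treh (0.11), the brush border trehalase, by Ivd (0.112) and by Cyp27a1 (0.123). Mme was followed by Casr (0.103), the calcium-sensing receptor, and by the aldehyde dehydrogenases Aldh5a1 and Aldh9a1 (0.105 each). Enpep was nearest to Clmn (0.0842), Pcsk5 (0.0984) and Whrn (0.0992).

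The RMS difference is not scaled to how far a gene moves, so its size is not compared between members. Agt was nearest to Rab11fip4 (RMS 0.118), Dnajc28 (0.132) and the retinol saturase Retsat (0.166), and Anpep to Nlrp6 (0.171), the dicarboxylate transporter gene Slc13a3 (0.174) and the amino acid transporter gene Slc6a20b (0.188). Ren1 was nearest to Hecw2 (0.179), Adgrf5 (0.182), an adhesion receptor of endothelial and other cells, and Pla2g7 (0.19). Within the 7 genes, Ace and Mme were closest (0.157), then Agtr1a and Enpep (0.169). Ren1 stood at 0.705 from Agtr1a to 1.83 from Anpep. Anpep was also far from the genes other than Ren1, at 0.731 from Agt to 1.18 from Agtr1a.

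Besides the 7 genes, 22 further genes of the pathway were listed by role, and 15 of them had an entry. The receptor genes Agtr1b, Agtr2 and Mrgprd and the mast cell or granulocyte protease genes Cma1, Mcpt4, Ctsg and Cpa3 had none. In isotype against sham 7 of 15 rose and 7 fell, and 32.1% of all genes rose and 30.7% fell. In anti-G-CSFR against isotype 7 rose and 7 fell, and 31.5% and 32% of all genes did. In anti-C5 against isotype 6 rose and 7 fell, and 30.5% and 29.8% of all genes did. These counts include Mas1, which could be in the table only through kidneys where it is higher. Their median log2 change was 0.36 for isotype relative to sham, −0.26 for anti-G-CSFR relative to isotype and −0.19 for anti-C5 relative to isotype.

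Mas1, which encodes a receptor of angiotensin-(1-7), was scarce, at 2.29 CPM in anti-G-CSFR, 2.59 in anti-C5, 0.517 in isotype and 1.78 in sham kidneys. It fell by 1.76 in isotype against sham and rose under both antibodies, but a gene this low passes the deposited table's minimum only through the groups where it is higher.

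The genes of proteins that bind renin, prorenin or the receptor follow. Agtrap fell by 0.77 ± 0.101 in isotype against sham and rose under both antibodies. Atp6ap2, the (pro)renin receptor gene, fell by 0.31 ± 0.0887 in isotype against sham (125.5 against 155.5 CPM; edgeR BH-adjusted p = 0.00953) and rose under anti-G-CSFR (edgeR BH-adjusted p = 0.0408). Its anti-C5 difference did not pass (edgeR BH-adjusted p = 0.147). Renbp, which encodes a renin-binding protein, passed in none of the 3 comparisons with isotype kidneys.

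The remaining peptidases split by direction. Prcp, Ctsa, Rnpep and the kallikrein gene Klk1 fell in isotype against sham, at −0.73, −0.65, −0.46 and −0.35, and rose under both antibodies. Klk1 belongs to a family of near-identical genes, so its counts are uncertain, and its 3 calls were close to the threshold (edgeR BH-adjusted p = 0.034 to 0.0422). Over the 20 alternatives and these comparisons, a call was lost 23 times for Klk1, 19 times for Rnpep, 11 times for Atp6ap2, 2 times for Lnpep and 1 time for Thop1. Prep, Nln, Thop1 and Dpp3, mostly cytosolic peptidases, and Lnpep, the angiotensin IV-binding aminopeptidase, rose in isotype against sham by 0.47 (Lnpep) to 0.77 (Nln) and fell under both antibodies. The lysosomal cathepsin gene Ctsd rose by 1.56 ± 0.193, at 2369 ± 216 CPM in isotype against 806 ± 53.9 CPM in sham kidneys, and stood at 945 ± 221 CPM with anti-G-CSFR and 939.7 ± 203 with anti-C5. Ctsb, another lysosomal cathepsin gene, rose by 0.83 in isotype against sham and fell under both antibodies. Macrophages are rich in both cathepsins, and the summed monocyte and macrophage markers were 113 to 127 CPM in anti-G-CSFR, 135 to 202 in anti-C5, 204 to 224 in isotype and 99.9 to 135 in sham kidneys. Of the 8 markers in this sum 3 rose, 1 fell and 4 did not pass in isotype against sham (32.1% of all genes rose and 30.7% fell). The part of these markers in the result was not tested.

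**Figure D4:**
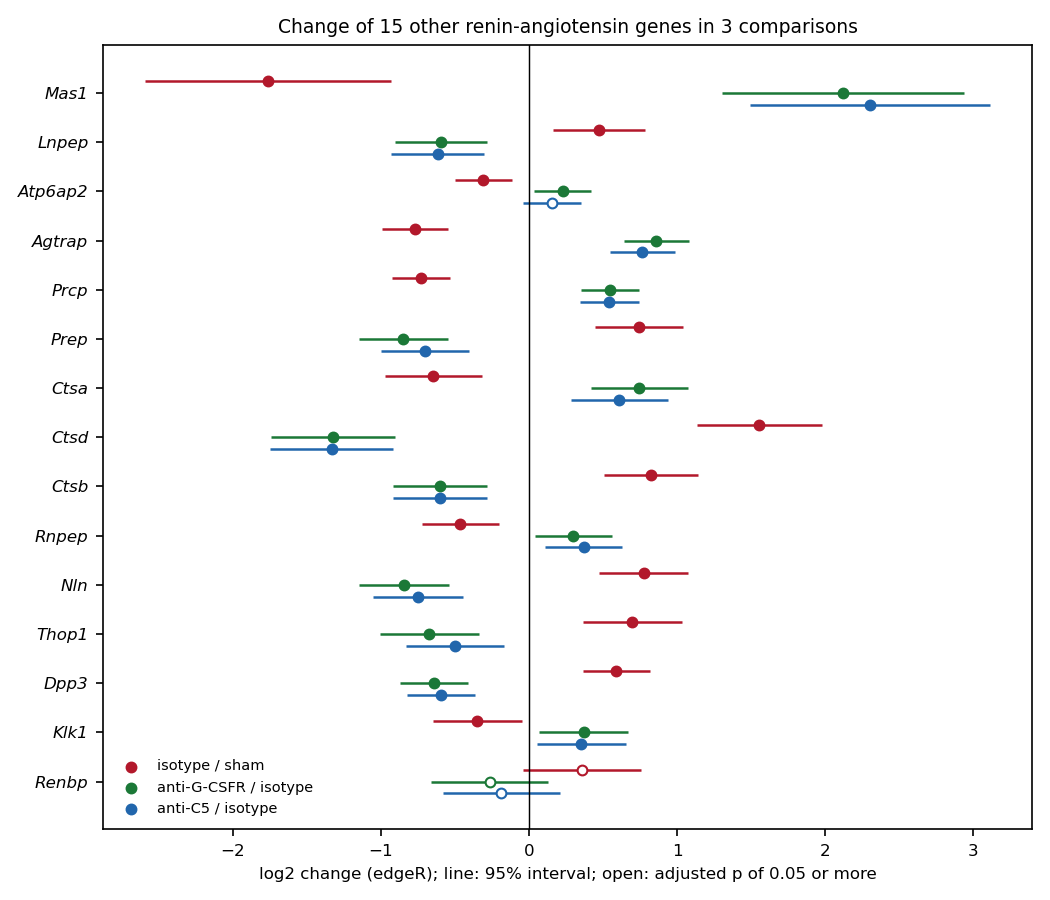
Log2 change of the 15 other measured renin-angiotensin genes for anti-G-CSFR against isotype, anti-C5 against isotype and isotype against sham, with 95% intervals from edgeR; open points did not pass the test. Genes with a change below 0 in isotype against sham, such as Mas1 and Agtrap, lie above 0 under both antibodies, and Ctsd shows the reverse order with 1.56 in isotype against sham.

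Genes that act on renin cells are described next. Of 27 genes of renin cells and the macula densa, the tubule segment that signals to them, 23 were measured. In isotype against sham 8 rose, 5 fell and 10 did not pass, where 32.1% of all genes rose and 30.7% fell. In anti-G-CSFR against isotype 5 rose and 11 fell (31.5% and 32% of all genes), and in anti-C5 against isotype 5 rose and 10 fell (30.5% and 29.8%). These counts include Ptgs2, which could be in the table only through kidneys where it is high. Slc12a1, the salt transporter gene through which the macula densa senses chloride and which the thick ascending limb shares, had the largest fall among those named, with a log2 change of −3.95 ± 0.273 in isotype against sham (101 against 1569 CPM; edgeR BH-adjusted p = 1.99e-06), and rose by 3.51 with anti-G-CSFR and 3.50 with anti-C5. Casr and Vdr, whose products restrain renin, fell by 2.02 and 1.82 in isotype against sham. They rose by 1.68 and 1.52 under anti-G-CSFR and by 1.66 and 1.60 under anti-C5. Which cells gave these whole-kidney values, and any link to Ren1, was not tested.

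Ptgs2 encodes cyclooxygenase-2, whose prostaglandins stimulate renin release. It rose by 3.94 ± 0.598 in isotype (12.1 ± 2.85 CPM) against sham (0.781 ± 0.181 CPM; edgeR BH-adjusted p = 0.000164). Against isotype it fell in both antibody groups, at 0.766 ± 0.232 CPM in anti-G-CSFR kidneys and at 0.917, 4.34 and 0.464 CPM in anti-C5 kidneys 10, 11 and 12. The log2 change with anti-C5 was −2.65, and −4.09 without kidney 11. The gene reached 2.01 CPM only in the isotype kidneys and kidney 11, so it could be in the table only through kidneys where it is high. Mesangial, mural and renin cell markers (9 of 10 measured; Tbx18 had no entry) summed to 167 to 244 CPM in anti-G-CSFR kidneys, 176 to 253 in anti-C5 kidneys, 380 to 542 in isotype kidneys and 199 to 247 in sham kidneys. Kidney 4 had the lowest isotype sum, at 380 CPM, as it had the lowest Ren1, and it also had the lowest isotype sum of the podocyte markers (457, against 618 and 622 CPM) and of the endothelial markers (467, against 663 and 665 CPM). The smooth muscle actin gene Acta2 made up much of the isotype sum, at 35.2 CPM in anti-G-CSFR, 46.8 in anti-C5, 236.5 in isotype and 33.3 in sham kidneys. Of these 9 markers 3 rose and 3 fell in isotype against sham (32.1% and 30.7% of all genes), and their part in the Ren1 values was not tested.

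Neighbouring gene groups were set beside the 7 genes. Of 13 measured genes of the kinin and natriuretic peptide systems, which share ACE and neprilysin as degrading enzymes, 3 rose and 5 fell when isotype kidneys were set against sham kidneys (32.1% and 30.7% of all genes). With anti-G-CSFR 6 rose and 3 fell against isotype (31.5% and 32%), and with anti-C5 5 rose and 4 fell (30.5% and 29.8%). Klkb1, Corin and Bdkrb2 are among the genes of this list. They could be in the table only through kidneys where they are higher, so these counts are not read as a result. Npr3, the natriuretic peptide clearance receptor gene, fell by 1.30 ± 0.124 in isotype against sham (9.83 against 24.2 CPM) and rose by 0.96 with anti-G-CSFR and 1.03 with anti-C5. Kng2, a kininogen gene with a near-identical copy that makes its counts uncertain, fell by 1.29 in isotype against sham and rose by 1.24 with anti-G-CSFR and 1.12 with anti-C5. Klkb1, the plasma prekallikrein gene, was under 1 CPM in isotype kidneys (0.450) and 3.22 CPM in sham kidneys, with a log2 change of −2.79, but like Mas1 it could be in the table only through the groups where it is higher.

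Of 23 measured brush border peptidases and proteins outside the 7 genes, 20 fell and 1 rose (Ezr, by 1.06) in isotype against sham. Of all genes 30.7% fell and 32.1% rose. The median log2 change of the 23 was −1.45. Against isotype, 18 rose and 1 fell under anti-G-CSFR (31.5% and 32% of all genes), with a median of 1.44. Under anti-C5 19 rose and 1 fell (30.5% and 29.8% of all genes), with a median of 1.26. Dpp4, a dipeptidyl peptidase gene of the same membrane, fell by 1.73 ± 0.113 in isotype (37.2 ± 2.94 CPM) against sham (123 ± 6.34 CPM; edgeR BH-adjusted p = 1.75e-06) and rose by 1.55 with anti-G-CSFR and 1.51 with anti-C5. The brush border gene Ush1c and the sodium-proton exchanger gene Slc9a3, which angiotensin II acts on, fell by 1.43 and 1.45 in isotype against sham. Beside this median, Anpep (−3.56), Mme (−1.95) and Ace (−1.91) had the larger falls and Enpep (−1.18) the smaller one.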

How the data were processed

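The authors deposited raw read counts, as whole numbers per Entrez gene, for 12 kidney libraries. Per the labels' protocols, libraries were strand-specific and read single-end at 100 bp. Per the submitters' processing notes, TopHat2 2.1.0, Bowtie2 2.2.5, featureCounts and build GRCm38.p4 were used; which annotation and strand setting the counting used is not given in the sources used here. Every gene's third-highest CPM was at least 2.01, so genes below about this level were not analysed here. Symbols came from RefSeq GRCm38.p6 (13074 genes; the 50 unnamed genes held 0.0811% of counts). Groups came from the labels. Each p-value sets a difference between groups against the spread between these kidneys.

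Counts were fitted with edgeR 4.0.16 in R 4.3.3 (TMM, robust quasi-likelihood, 12 libraries, 8 residual degrees of freedom, filterByExpr removing 0 genes), after a check on simulated data. SEs are the log2 change divided by the root of its F statistic. Alternatives were RLE factors, library totals, no filter, a mean of at least 5 CPM, DESeq2 1.42.0, limma-voom (limma 3.58.1), only the compared libraries, the fit without kidneys 9 and 11 and each kidney left out. The 7 genes, the lists and the tests were chosen with earlier results of these data known. By rule, the 7 genes, every measured other renin-angiotensin gene, the 3 genes nearest to each member and the 3 genes with the smallest p in isotype against sham of each further list are named. Ptgs2, Acta2 and Ezr were named after their values were seen. One gene that the rule names, and the counts with it, are not reported here.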

Additional observations from a re-analysis of the deposited data

How the results depend on the processing

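Each of 144 results was recomputed under 20 alternatives, except that Mas1 and Klkb1 had no value with a mean of at least 5 CPM. In all, 2781 values were labelled as the same. For log2 changes this means the same direction and call. For counts of called genes it means a count near the main one, such as 7 in place of 6. No paired analysis was possible because kidneys are numbered 1 to 12 and no number occurs in 2 groups. Members called numbered 6 to 7 in each isotype comparison over the kidneys left out in turn and 0 in the other comparisons. Library totals shifted the all-gene median log2 change to 0.23 for isotype relative to sham, −0.23 for anti-G-CSFR relative to isotype and −0.19 for anti-C5 relative to isotype. The share of called genes that were higher was then 64.35%, 35.87% and 37.8% in that order, against 51.05%, 49.64% and 50.59% with TMM, and the 6 genes kept their calls. The Ren1 call under anti-C5 had an adjusted p of 0.000402 to 0.19 over the alternatives. Called genes of the kinin and natriuretic peptide list numbered 4 in isotype against sham and 5 in anti-C5 against isotype with a mean of at least 5 CPM, and those of the renin cell list in anti-G-CSFR against isotype 10 without kidney 8. With 3 kidneys a group, a difference that did not pass is not shown to be absent, and the intervals given show how large it could be.

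Signs turned only for differences that had not passed the test, and the cause was not tested. With library totals Atp6ap2 in anti-C5 against isotype was at −0.028 and Agtr1a in anti-C5 against sham at 0.019. With a mean of at least 5 CPM Agtr1a in anti-C5 against sham was at 0.0040. Without kidneys 9 and 11, anti-G-CSFR against anti-C5 gave −0.0063 for Agt, −0.092 for Agtr1a and −0.040 for Mme, and Agtr1a against sham was at −0.038 for anti-G-CSFR and 0.054 for anti-C5. With each kidney left out in turn, anti-G-CSFR against anti-C5 ranged from −0.00064 to 0.36 for Agt, −0.30 to 0.016 for Ace, −0.042 to 0.13 for Agtr1a, −0.12 to 0.16 for Mme and −0.020 to 0.29 for Anpep. Agtr1a against sham ranged from −0.038 to 0.11 for anti-G-CSFR and from −0.090 to 0.048 for anti-C5.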
